A study of Mus musculus with 8 samples.

Results

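A set of 10 genes of T cells and cytotoxic lymphocytes, of 51789 genes in the deposited table, was examined in the mouse mammary gland: the CD3 chains Cd3d, Cd3e and Cd3g, the coreceptors Cd4, Cd8a and Cd8b1, the regulatory T cell factor Foxp3, and the cytotoxic genes Gzma, Gzmb and Nkg7. They were chosen by name, as genes of T and NK cells, with no threshold on a measured value. All 10 were in the table and all 10 passed the filter on low counts.

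The glands came from female immunocompetent C57BL/6 mice that had received, in the abdominal mammary gland, small extracellular vesicles (sEVs) of AT3, a mouse mammary adenocarcinoma line that metastasizes, and whole-gland RNA was sequenced 6 weeks later. The AT3 cells had released the vesicles in normoxia (sEV-NORM, labelled normoxia exosomes, 3 libraries) or in hypoxia (sEV-HYP, labelled hypoxia exosomes, 2 libraries), and sEV-CTRL (labelled control, 3 libraries) came from medium that no cells had conditioned. sEV-CTRL therefore lacks tumor cell vesicles of any kind, and only sEV-HYP against sEV-NORM compares vesicles of the same cells. The labels do not tie a library to an animal, so the P values measure the spread between these libraries. Total counts per library ranged from 18194996 to 24622569, and the members were counted with 89 (Gzmb) to 2620 (Cd8a) reads per library.

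A T cell recognizes peptide on MHC molecules through its antigen receptor, whose signal is passed on by the CD3 chains. CD4 marks helper and regulatory T cells, CD8 marks cytotoxic T cells, and FOXP3 is the transcription factor that defines regulatory T cells. Cytotoxic T cells and NK cells kill by releasing granules that hold granzymes, and the abdominal mammary gland of the mouse has a lymph node embedded in its fat pad, which holds many naive T and B cells.

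Levels are given as CPM, counts scaled by the TMM-normalized library size, for each library in the order of its replicate number. A gene was called where the unadjusted P of the quasi-likelihood F-test of edgeR (two-sided) was under 0.05, the threshold the study used. P values were adjusted by Benjamini and Hochberg's procedure across the 17858 genes tested.

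Of the 10 members, 1 was called with sEV-HYP against sEV-NORM, where 3.95% of all genes were called, and 0 in the other comparisons. Gzma, which encodes granzyme A, was lower with sEV-HYP than with sEV-NORM (log2 fold change -0.98, SE 0.35, unadjusted P = 0.0191, edgeR), and it did not pass after adjustment (adjusted P of 1.00). The CD3 chains, both CD8 genes and Nkg7 differed by 1.79 to 2.34 times between their lowest and highest library, and their 3 groups overlapped in every comparison. In each of these 6 genes, the sEV-CTRL replicate 2 library and the sEV-HYP replicate 2 library had the lowest levels of all 8.

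**Figure D1:**
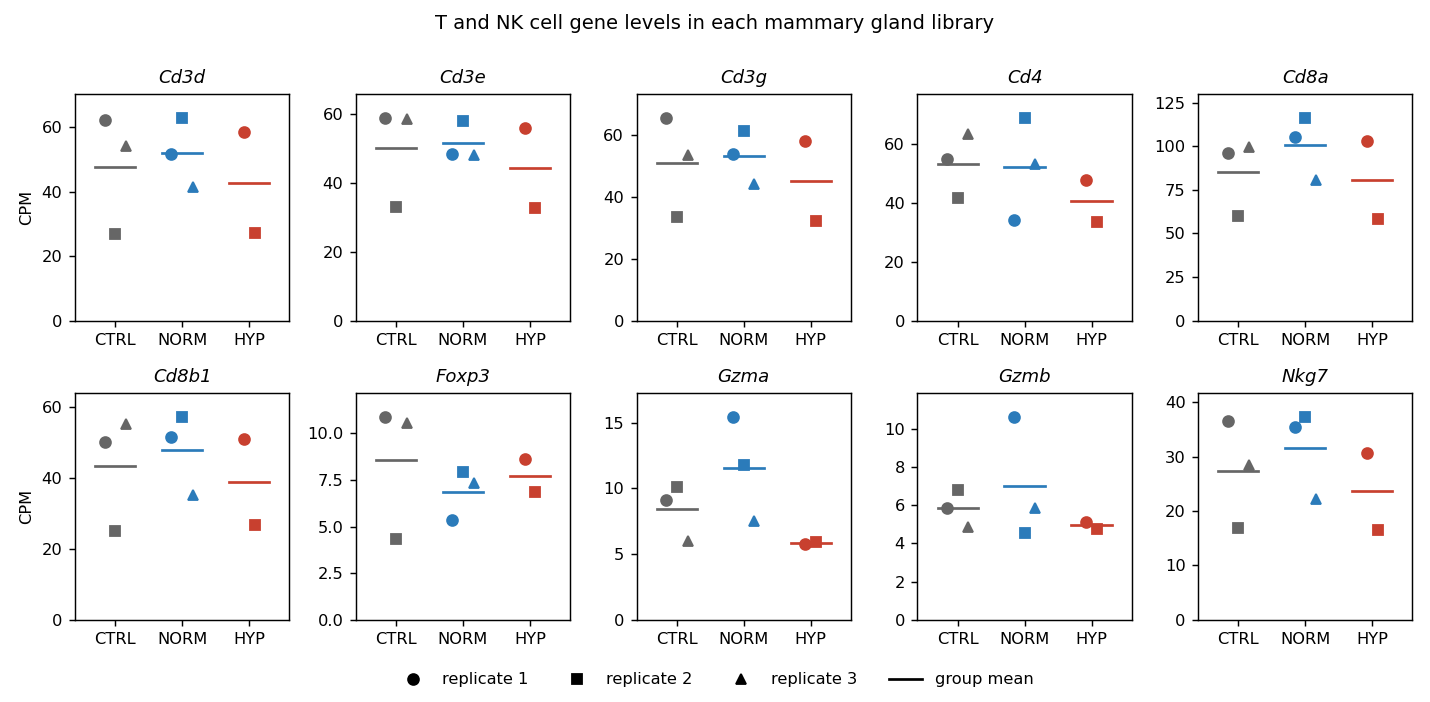
Level of each of the 10 genes in CPM (vertical axis, from 0) in the 3 sEV-CTRL, 3 sEV-NORM and 2 sEV-HYP libraries, with the replicate number as the symbol and the group mean as a line. Squares, the libraries of replicate 2, were low for the CD3 and CD8 genes and Nkg7 in sEV-CTRL and sEV-HYP but not in sEV-NORM, and only Gzma had both sEV-HYP libraries below every other library.

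Cd3d, Cd3e and Cd3g encode the delta, epsilon and gamma chains of CD3. They lie side by side on chromosome 9 (GRCm38): Cd3g at chr9:44969572-44980431 on the minus strand, Cd3d at chr9:44981786-44987339 on the plus strand, and Cd3e at chr9:44998740-45009627 on the minus strand. Cd3d and Cd3g are transcribed away from each other, with 1354 bases between them. Because these 3 genes varied together, their upstream sequences are shown, each as the 250 bases before the RefSeq transcription start (GRCm38.p6), 5′ to 3′ on the strand of the gene. Capitals mark matches, on either strand, to short motifs of known families of transcription factors. The ETS family motif was searched as AGGAAG. The TCF/LEF family motif was searched as CTTTGA. The motif of the GATA family of factors was searched with the letters AGATAA.
Cd3g, chr9:44980432-44980681, minus strand: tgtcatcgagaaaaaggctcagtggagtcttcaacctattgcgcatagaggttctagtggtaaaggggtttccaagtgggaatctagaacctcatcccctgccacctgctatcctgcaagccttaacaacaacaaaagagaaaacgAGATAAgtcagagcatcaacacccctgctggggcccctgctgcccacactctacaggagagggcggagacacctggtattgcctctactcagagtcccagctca
Cd3d, chr9:44981536-44981785, plus strand: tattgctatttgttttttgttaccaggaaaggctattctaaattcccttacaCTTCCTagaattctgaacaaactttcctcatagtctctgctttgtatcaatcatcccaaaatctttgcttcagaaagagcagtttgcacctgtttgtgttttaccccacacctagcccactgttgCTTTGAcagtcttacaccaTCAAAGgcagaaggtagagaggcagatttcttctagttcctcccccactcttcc
Cd3e, chr9:45009612-45009861, minus strand: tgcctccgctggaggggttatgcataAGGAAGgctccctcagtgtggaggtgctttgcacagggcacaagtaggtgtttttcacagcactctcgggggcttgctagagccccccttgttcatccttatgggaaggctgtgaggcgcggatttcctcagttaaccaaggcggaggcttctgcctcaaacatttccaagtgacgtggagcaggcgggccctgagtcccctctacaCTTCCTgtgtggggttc

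The Cd3d window held 1 ETS and 2 TCF/LEF matches, that of Cd3e 2 ETS matches, and that of Cd3g 1 GATA match. Of 32851 mouse promoter windows of the same length, 29.5% held the ETS motif, 13.8% the TCF/LEF motif and 9.99% the GATA motif, so these motifs are common. The matches shown do not overlap each other, and a match is a run of letters and not a site at which a factor was measured.

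Cd3d was at 62.2, 26.8 and 54.0 CPM with sEV-CTRL, at 51.7, 62.8 and 41.4 CPM with sEV-NORM, and at 58.4 and 27.2 CPM with sEV-HYP. Cd3e was at 58.8, 33.1 and 58.5 CPM, at 48.4, 57.9 and 47.9 CPM, and at 55.9 and 32.8 CPM in the same order of groups. Cd3g was at 65.6, 33.6 and 53.5 CPM, at 54.0, 61.3 and 44.3 CPM, and at 58.1 and 32.3 CPM. In all 3 genes, sEV-CTRL replicate 2 and sEV-HYP replicate 2 were the lowest, below the other 6 libraries, and the groups overlapped in every comparison. With sEV-HYP against sEV-NORM, the log2 fold changes were -0.28 (Cd3d), -0.21 (Cd3e) and -0.23 (Cd3g), with standard errors of 0.30 to 0.40. The 95% interval for Cd3e reached from -0.88 to 0.46, so a fall or a rise of moderate size was not detectable with these libraries. Against sEV-CTRL, sEV-HYP gave -0.15, -0.17 and -0.17, and sEV-NORM gave 0.12, 0.04 and 0.06 for the same 3 genes. Cd3e shares 135 exonic bases with the antisense gene Gm48719, and the text of the study does not say whether strand was used in counting.

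Cd4, which encodes the coreceptor of helper T cells (chr6:124864692-124888221, minus strand), was at 54.9, 41.7 and 63.4 CPM with sEV-CTRL, at 34.3, 68.8 and 53.4 CPM with sEV-NORM, and at 47.8 and 33.3 CPM with sEV-HYP. sEV-NORM replicate 1 and sEV-HYP replicate 2 were the lowest libraries, and the groups overlapped. The log2 fold change was -0.36 with sEV-HYP against sEV-NORM (SE 0.31, unadjusted P = 0.267) and -0.39 against sEV-CTRL (SE 0.31, unadjusted P = 0.230). With sEV-NORM against sEV-CTRL it was -0.03 (unadjusted P = 0.907). With 1 library left out, the Cd4 difference from sEV-NORM ran from -0.64 (without sEV-HYP replicate 1) to -0.11 (without sEV-NORM replicate 2), and that from sEV-CTRL from -0.67 (without sEV-HYP replicate 1) to -0.17 (without sEV-HYP replicate 2).

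Cd8a (chr6:71373427-71379173) and Cd8b1 (chr6:71322788-71337494) encode the alpha and beta chains of CD8 and lie on the plus strand, 35932 bases apart. Cd8a was at 96.0, 59.9 and 99.4 CPM with sEV-CTRL, at 105, 116 and 80.5 CPM with sEV-NORM, and at 103 and 58.5 CPM with sEV-HYP. Cd8b1 was at 50.2, 24.9 and 55.3 CPM, at 51.6, 57.2 and 35.2 CPM, and at 51.0 and 26.7 CPM in the same order. Both genes repeated the pattern of the CD3 chains, with 2 low libraries and overlapping groups. Cd8a differed by -0.32 between sEV-HYP and sEV-NORM on the log2 scale (SE 0.30, unadjusted P = 0.316) and by -0.08 between sEV-HYP and sEV-CTRL (unadjusted P = 0.804, edgeR). Cd8b1 differed by -0.30 and -0.16 in these comparisons. With sEV-HYP replicate 1 left out, Cd8a passed the threshold against sEV-NORM (-0.78, unadjusted P = 0.0498, edgeR), and with sEV-HYP replicate 2 left out the difference had the opposite sign (0.03).

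Foxp3 (chrX:7573644-7595245, plus strand) was a low-level member, at 10.9, 4.33 and 10.6 CPM with sEV-CTRL, at 5.35, 7.93 and 7.33 CPM with sEV-NORM, and at 8.61 and 6.85 CPM with sEV-HYP. The sEV-CTRL libraries held both the highest and the lowest level, so all comparisons overlapped. The log2 fold change was 0.17 with sEV-HYP against sEV-NORM (SE 0.39, unadjusted P = 0.669), the only positive one among the members in that comparison, and -0.15 with sEV-HYP against sEV-CTRL (SE 0.39, unadjusted P = 0.712, edgeR). With sEV-NORM against sEV-CTRL it was -0.32 (SE 0.35, unadjusted P = 0.381), and without sEV-CTRL replicate 2 it was -0.64 and passed the threshold (unadjusted P = 0.0281, edgeR). Foxp3 shares exonic bases with 4 other genes, of which the long noncoding gene Flicr shares 853 bases on the same strand, so its counts are uncertain. Per exon length, the Foxp3 to Cd4 ratio was 0.159 and 0.181 with sEV-HYP, 0.138, 0.102 and 0.121 with sEV-NORM, and 0.175, 0.0915 and 0.147 with sEV-CTRL. Both sEV-HYP libraries were above the 3 sEV-NORM libraries in this ratio and overlapped with sEV-CTRL. Between sEV-HYP and sEV-NORM, 22.8% of all genes had no overlap in either direction, and the difference in the ratio was not tested.

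Gzma (chr13:113093825-113100981, minus strand) is the member that was called, and the 250 bases before its RefSeq start are shown in the same way. Capitals mark its match to TGTGGT, the core motif of the RUNX family, which 14.0% of the promoter windows held. A search for TCACAC, of the T-box family, which 12.3% of the windows held, gave no match in it. The ETS, GATA, TCF/LEF, AP-1 and TATA motifs gave no match in it either.
Gzma, chr13:113100982-113101231, minus strand: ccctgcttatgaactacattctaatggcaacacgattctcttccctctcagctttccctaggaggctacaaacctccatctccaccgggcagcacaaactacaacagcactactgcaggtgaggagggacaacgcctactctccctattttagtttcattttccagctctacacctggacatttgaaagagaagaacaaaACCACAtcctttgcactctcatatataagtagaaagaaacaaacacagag

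Gzma was at 9.14, 10.1 and 5.96 CPM with sEV-CTRL, at 15.4, 11.8 and 7.52 CPM with sEV-NORM, and at 5.77 and 5.94 CPM with sEV-HYP. Both sEV-HYP libraries were below all 3 sEV-NORM libraries, and also below all 3 sEV-CTRL libraries, although sEV-CTRL replicate 3 was barely higher. The mean was 5.86 CPM with sEV-HYP (SD 0.120, n = 2), 11.6 CPM with sEV-NORM (SD 3.95, n = 3) and 8.41 CPM with sEV-CTRL (SD 2.17, n = 3). Against sEV-CTRL, the log2 fold change of sEV-HYP was -0.52 (SE 0.34, unadjusted P = 0.160) and that of sEV-NORM was 0.46 (SE 0.30, unadjusted P = 0.159, edgeR). The latter was 0.19 without sEV-NORM replicate 1, and 0.69 and past the threshold without sEV-NORM replicate 3 (unadjusted P = 0.0392, edgeR). The difference between sEV-HYP and sEV-NORM kept its direction with each library left out in turn (-1.21 to -0.72), and was no longer past the threshold without sEV-NORM replicate 1 (unadjusted P = 0.0728), sEV-HYP replicate 1 (unadjusted P = 0.0762) or sEV-HYP replicate 2 (unadjusted P = 0.0619, edgeR).

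Gzmb, which encodes granzyme B (chr14:56258838-56262260, minus strand), was at 5.84, 6.79 and 4.87 CPM with sEV-CTRL, at 10.6, 4.57 and 5.87 CPM with sEV-NORM, and at 5.13 and 4.76 CPM with sEV-HYP. A single library, sEV-NORM replicate 1, stood above the other 7, and it was also the highest for Gzma. The log2 fold change between sEV-HYP and sEV-NORM was -0.51 (SE 0.37, unadjusted P = 0.202), with overlapping groups, and it was -0.07 without sEV-NORM replicate 1 (edgeR). Granzyme B belongs to a family of closely related genes on the same chromosome, between which reads may have been split.

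Nkg7, which encodes a granule membrane protein of NK cells and cytotoxic T cells (chr7:43437073-43438249, plus strand), was at 36.6, 16.9 and 28.5 CPM with sEV-CTRL, at 35.5, 37.3 and 22.2 CPM with sEV-NORM, and at 30.8 and 16.5 CPM with sEV-HYP. Its 2 lowest libraries, sEV-HYP replicate 2 and sEV-CTRL replicate 2, were those of the CD3 genes. The log2 fold change was -0.42 with sEV-HYP against sEV-NORM (SE 0.38, unadjusted P = 0.297), and -0.21 against sEV-CTRL (SE 0.38, unadjusted P = 0.599, edgeR), with overlapping groups. Relative to sEV-NORM it was -0.94 without sEV-HYP replicate 1 and -0.05 without sEV-HYP replicate 2.

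**Figure D2:**
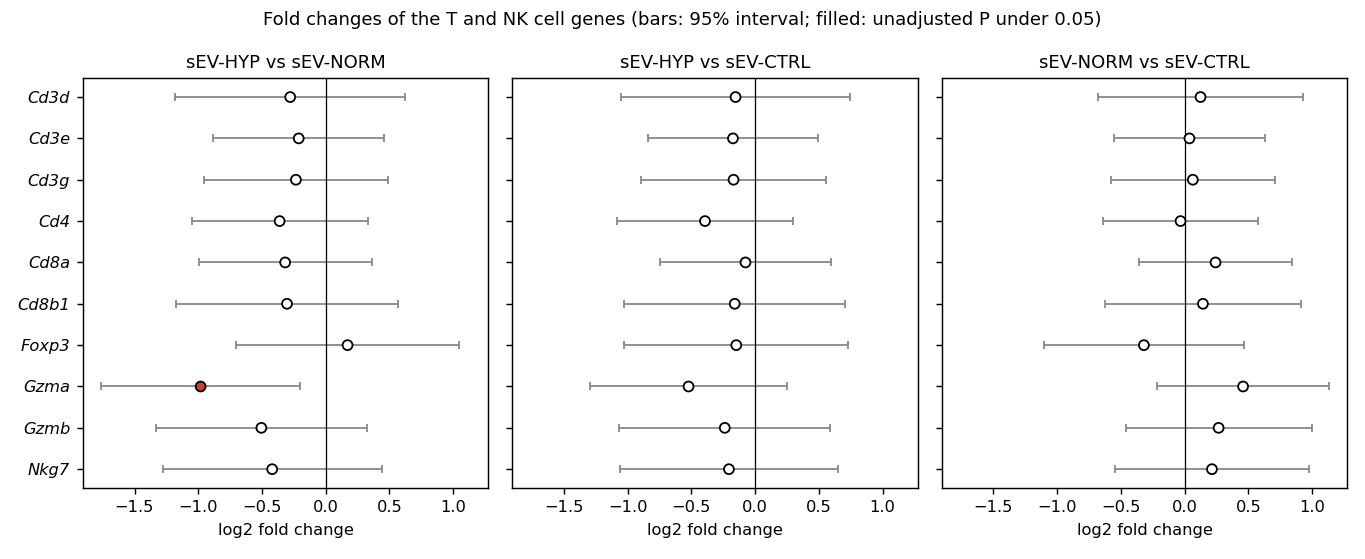
Log2 fold change of each member (horizontal axis) in the 3 comparisons, with its 95% interval from the edgeR fit of 3 sEV-CTRL, 3 sEV-NORM and 2 sEV-HYP libraries. A filled point marks an unadjusted P under 0.05, which only Gzma reached, with sEV-HYP against sEV-NORM at -0.98, and the intervals of the other members all cross 0.

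Over all genes, 3.95% were called with sEV-HYP against sEV-NORM, 2.45% with sEV-HYP against sEV-CTRL and 1.62% with sEV-NORM against sEV-CTRL, and 0% passed an adjusted P of 0.05 in any of them. Among the 10 members, 1 was called in the first comparison and 0 in the other comparisons at an unadjusted P under 0.05, and DESeq2 gave the same counts at this threshold. After adjustment, edgeR and DESeq2 called 0 members. The groups did not overlap for 22.8% of all genes with sEV-HYP against sEV-NORM, for 12.8% with sEV-HYP against sEV-CTRL and for 4.86% with sEV-NORM against sEV-CTRL. Among the members, Gzma was the 1 gene without overlap in the first and in the second comparison, and there was none in the third, each a smaller share than over all genes. The comparisons share libraries and are not independent of each other.

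With sEV-HYP against sEV-NORM, 9 of 10 members had a negative log2 fold change, with a median of -0.31, beside -0.02 over all genes, of which 47.0% were positive. With sEV-HYP against sEV-CTRL, 10 of 10 were negative with a median of -0.17 (all genes: -0.02). With sEV-NORM against sEV-CTRL, 8 were positive and 2 negative, with a median of 0.13. The members of these counts move together across libraries and do not count as independent genes. Leaving out sEV-HYP replicate 2 turned the median against sEV-NORM to 0.06 and that against sEV-CTRL to 0.15. In whole-gland RNA, differences in the number of T cells, in RNA per T cell and in the lymph node content of the sample cannot be told apart.

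Per kilobase of exon, the order of mean levels over the 8 libraries was Nkg7 (30.7 CPM per kb), Cd8b1 (29.7), Cd3d (26.5), Cd8a (24.7), Cd3g (15.4), Cd4 (12.3), Cd3e (12.1), Gzma (8.90), Gzmb (4.22) and Foxp3 (1.69). The standard deviations of Nkg7, Cd8b1, Cd3d and Cd8a over the libraries were 5.88 to 9.35 CPM per kb, more than the gaps between these neighbors. The gaps between Cd3g, Cd4 and Cd3e, at most 3.07, were also within the standard deviations of the neighbors. All genes were measured in the same libraries, so these spreads do not show whether neighbors differ. Gzma stood above Gzmb by 4.68 CPM per kb, and Gzmb above Foxp3 by 2.53, more than their standard deviations. The exon length used is that of all annotated exons together, which understates genes with long rarely used exons. Per length, Cd8a stood above Cd4 in all 8 libraries, by 1.59 to 3.40 times, with the highest ratio in sEV-NORM replicate 1. The Cd8a to Cd8b1 ratio stayed between 0.733 and 0.980, and the Cd3g to Cd3e ratio between 1.14 and 1.39. Cd8b1 thus stood above Cd8a, and Cd3g above Cd3e, in all 8 libraries. The Gzma to Cd3e ratio ranged more widely, from 0.414 to 1.29.

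**Figure D3:**
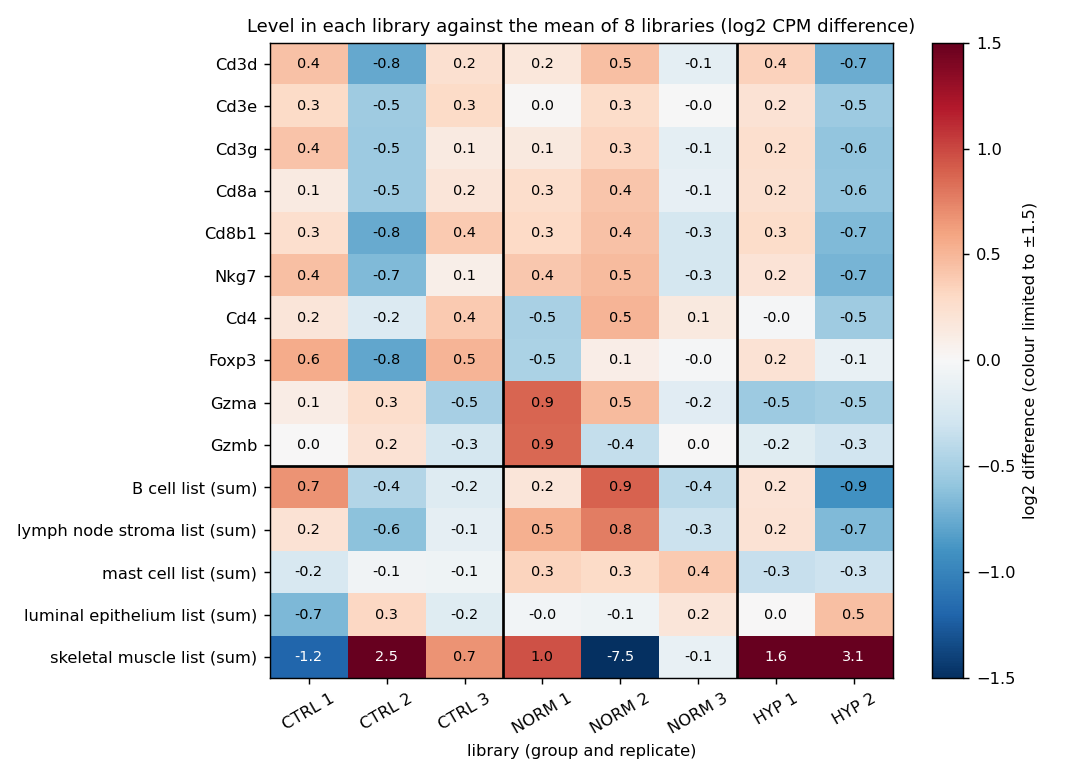
Log2 CPM of each member, and of the summed CPM of 5 marker lists (below the line), minus its mean over the 8 libraries (columns), with red for higher and blue for lower (colour limited to 1.5 either way, values printed). sEV-CTRL 2 and sEV-HYP 2 were blue for the CD3 and CD8 genes, Nkg7, B cell and lymph node stroma genes and red for skeletal muscle genes, whereas the granzymes had their highest values in sEV-NORM 1.

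Across the 8 libraries, 6 members (Cd3d, Cd3e, Cd3g, Cd8a, Cd8b1 and Nkg7) varied together, with Pearson's r of 0.895 to 0.993 over their 15 pairs, whereas the r of the granzymes with these genes was -0.159 to 0.398 over 12 pairs. Cd3e was compared with each other member and with 8 marker lists, and Gzma with 6 genes, a family of 23 relations with adjustment over all of them. Cd3e and Cd3d gave r = 0.977 (exact permutation p = 0.000794, adjusted 0.0183) and rho = 0.857 (exact permutation p = 0.0107, adjusted 0.0411), with r = 0.827 over the other 6 libraries once the 2 farthest from the median of Cd3e (sEV-CTRL replicate 2 and sEV-HYP replicate 2) were left out. Cd3e and Cd8a gave r = 0.930 (exact permutation p = 0.00804, adjusted 0.0242) and rho = 0.595 (exact permutation p = 0.132, adjusted 0.190), and r was 0.483 without these libraries, so this relation rests largely on them. Within treatments, after each group's mean was taken off, r was 0.979 for Cd3d and 0.948 for Cd8a. Foxp3 and Cd4 were left out of these 6 members but were also positively related to Cd3e. Cd3e and Foxp3 gave r = 0.754 (exact permutation p = 0.0365, adjusted 0.0731) and rho = 0.857 (exact permutation p = 0.0107, adjusted 0.0411). Cd3e and Cd4 gave r = 0.731 (exact permutation p = 0.0420, adjusted 0.0742) and rho = 0.786 (exact permutation p = 0.0279, adjusted 0.0642). Without the 2 farthest libraries, r was 0.828 for Foxp3, 0.673 for Cd4 and 0.469 for Nkg7. Cd3e and Gzma gave r = 0.04 (exact permutation p = 0.930) and rho = 0.0952 (exact permutation p = 0.840), and r = -0.348 without the 2 farthest libraries.

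The low CD3 libraries were also low in the summed levels of B cell genes and of lymph node stroma genes. The summed level of 10 B cell genes was 2610, 1208 and 1435 CPM with sEV-CTRL, 1860, 3013 and 1236 CPM with sEV-NORM, and 1880 and 872 CPM with sEV-HYP. That of 5 lymph node stroma genes, among them the chemokine genes Ccl21a, Ccl19 and Cxcl13, was 808, 453 and 635 CPM, 1005, 1187 and 556 CPM, and 807 and 441 CPM. No gene of either list was at 0 in a library. Cd3e followed the lymph node stroma list with r = 0.880 (exact permutation p = 0.00370, adjusted 0.0212) and rho = 0.762 (exact permutation p = 0.0368, adjusted 0.0769), and the B cell list with r = 0.824 (exact permutation p = 0.0114, adjusted 0.0292) and rho = 0.810 (exact permutation p = 0.0218, adjusted 0.0626). Without the 2 farthest libraries these r were 0.614 and 0.591, and within treatments they were 0.884 and 0.805. Skeletal muscle genes ran from 7.89 CPM (sEV-NORM replicate 2) to 11735 CPM (sEV-HYP replicate 2) in sum, with 7697 CPM in sEV-CTRL replicate 2, so that both libraries low in CD3 were the highest in muscle genes. Cd3e and the muscle list gave r = -0.622 (exact permutation p = 0.0797, adjusted 0.115) and rho = -0.738 (exact permutation p = 0.0458, adjusted 0.0878). Without the 2 farthest libraries this r was -0.434. With the dendritic cell, macrophage, mast cell and white adipocyte lists, r was 0.437, 0.081, 0.386 and -0.282 (exact permutation p, adjusted, 0.346 to 0.893). Beyond these relations, the part of lymph node and muscle content in the levels of the T cell genes was not tested.

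By Pearson's r with the mean log2 CPM of the 3 CD3 genes over the 8 libraries, the genes most like them were Laptm5 (0.996), Gm9320 (0.988), Fxyd5 (0.987), Pik3cd (0.986), Ltb (0.985), Spi1 (0.985), Tcf7 (0.984) and Il16 (0.984). Laptm5 is expressed throughout the lymphocyte and myeloid lineages, Pik3cd encodes a leukocyte PI3 kinase, Ltb encodes lymphotoxin beta, Tcf7 encodes a T cell transcription factor, and Spi1 encodes PU.1 of B and myeloid cells. Of 17845 genes compared, 492 (2.76%) had r above 0.9, and all of them share the same 8 libraries.

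Among other T cell genes, 18 genes of the T cell receptor and its proximal signalling had a median log2 fold change of -0.23 with sEV-HYP against sEV-NORM, with 16 negative and 1 called. This was Trdc, the constant region of the delta chain of gamma-delta T cells, at 37.1, 27.8 and 23.4 CPM with sEV-CTRL, 47.8, 45.4 and 26.3 CPM with sEV-NORM, and 27.7 and 18.6 CPM with sEV-HYP. Its groups overlapped, and the log2 fold change was -0.78 (SE 0.31, unadjusted P = 0.0337, adjusted 1.00, edgeR). The call was lost without sEV-NORM replicate 1, sEV-NORM replicate 2 or sEV-HYP replicate 2 (-0.53 without the last). Against sEV-CTRL, 0 of the 18 were called, with medians of -0.22 for sEV-HYP and 0.07 for sEV-NORM.

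The other T cell lists had 0 called genes at an unadjusted P under 0.05 in the 3 comparisons by edgeR. With sEV-HYP against sEV-NORM, the median was -0.24 over 10 T cell transcription factors, -0.21 over 5 genes of naive T cell homing and survival, -0.08 over 6 inhibitory receptor genes and 0.12 over 7 genes of regulatory T cells. Against sEV-CTRL, these medians were -0.09, -0.17, -0.03 and 0.04 for sEV-HYP, and 0.20, 0.04, 0.09 and 0.06 for sEV-NORM. Of the regulatory T cell genes, Ctla4 and Ikzf2, singled out after their values were seen, had both sEV-HYP libraries above all sEV-CTRL libraries. Between these groups there was no overlap, in either direction, for 12.8% of all genes. Of the 7 listed genes, 5 had a positive and 2 a negative log2 fold change with sEV-HYP against sEV-CTRL. Ctla4, an inhibitory receptor of regulatory and activated T cells, was at 6.35, 3.74 and 6.24 CPM with sEV-CTRL, 3.50, 9.18 and 5.16 CPM with sEV-NORM, and 10.2 and 7.12 CPM with sEV-HYP, a log2 fold change of 0.67 against sEV-CTRL (SE 0.42, unadjusted P = 0.140, edgeR). Ikzf2, which encodes the transcription factor Helios, had 0.32 (SE 0.26, unadjusted P = 0.248, edgeR). Neither passed the threshold.

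The cytotoxic and NK cell list of 16 genes had a median log2 fold change of -0.49 with sEV-HYP against sEV-NORM, with 15 of 16 negative, 4 called and 8 below all sEV-NORM libraries, beside 3.95% of all genes called and 22.8% without overlap in either direction. The genes of this list were measured in the same libraries and do not count as independent genes. Gzmk, among these 8, had only 2 to 17 reads per library. Klrb1c, which encodes the NK receptor NK1.1, was at 6.91, 6.25 and 6.02 CPM with sEV-CTRL, 7.92, 7.80 and 6.20 CPM with sEV-NORM, and 4.49 and 3.27 CPM with sEV-HYP. Both sEV-HYP libraries were below all 6 others, which gave a log2 fold change of -0.91 relative to sEV-NORM (SE 0.26, unadjusted P = 0.00638) and -0.72 against sEV-CTRL (SE 0.26, unadjusted P = 0.0211, both adjusted 1.00, edgeR). Without sEV-HYP replicate 2 these were -0.71 and -0.52 and neither passed the threshold. Klrc1, which encodes the NKG2A receptor, was at 8.58, 7.43 and 6.46 CPM, 8.81, 16.6 and 9.04 CPM, and 7.38 and 3.05 CPM in the same order, and its log2 fold change relative to sEV-NORM was -1.13 (SE 0.42, unadjusted P = 0.0248), and -0.64 without sEV-HYP replicate 2 and -0.77 without sEV-NORM replicate 2, neither past the threshold (edgeR). Klrk1 (-0.55, unadjusted P = 0.0328), encoding NKG2D, and Ncr1 (-0.80, unadjusted P = 0.0431, edgeR), encoding the NKp46 receptor, were the other called genes, named after their values were seen, and each lost its call with several of the libraries left out (down to -0.36 for Klrk1 without sEV-NORM replicate 2 and -0.58 for Ncr1 without sEV-HYP replicate 1). Of this list, Klrb1c was the 1 gene called with sEV-HYP against sEV-CTRL, where the median was -0.22.

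With sEV-NORM against sEV-CTRL the same 16 genes had a median of 0.38, with 14 positive and 3 called, beside 49.8% positive and 1.62% called over all genes. Xcl1, a chemokine gene of NK and activated CD8+ T cells, was at 4.16, 3.78 and 5.09 CPM with sEV-CTRL, 5.99, 6.74 and 6.43 CPM with sEV-NORM, and 4.31 and 4.55 CPM with sEV-HYP. Its sEV-NORM libraries were above all others, and the log2 fold change was 0.56 (SE 0.22, unadjusted P = 0.0317, edgeR). Klrg1, a receptor of mature NK and effector T cells (1.29, unadjusted P = 0.0453), and Klrk1 (0.45, unadjusted P = 0.0458, edgeR), named after its value was seen, were the other called genes. Klrg1 was at only 0.559, 0.638 and 0.547 CPM with sEV-CTRL and 0.483, 2.17 and 1.66 CPM with sEV-NORM (10 to 49 reads). Its groups overlapped, with sEV-NORM replicate 1 below all sEV-CTRL libraries. The calls of Xcl1, Klrg1 and Klrk1 were lost under most single-library omissions and in DESeq2 on only the 2 groups compared, and without sEV-NORM replicate 2 the fold changes of Klrg1 and Klrk1 were 0.86 and 0.25. The opposite signs of the list in the comparisons with sEV-NORM share the sEV-NORM libraries.

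**Figure D4:**
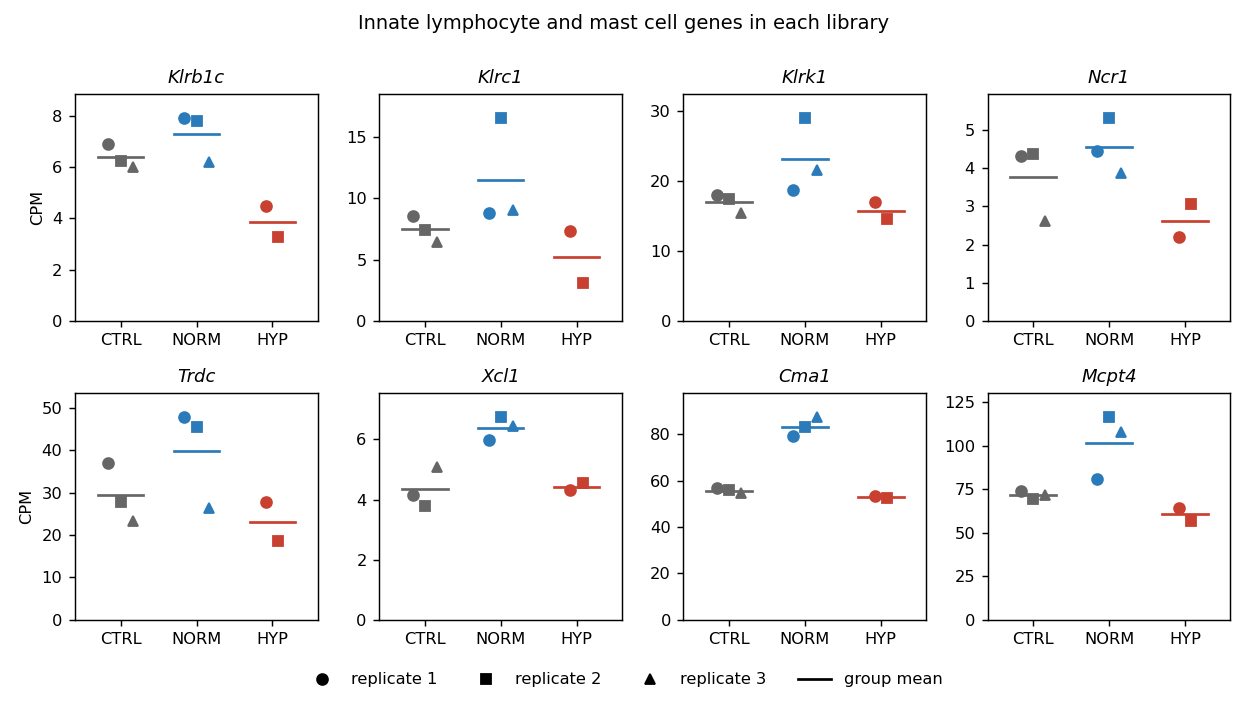
CPM (vertical axis, from 0) of 6 genes of NK cells and innate-like lymphocytes and of the mast cell genes Cma1 and Mcpt4 in each library, with the replicate number as the symbol and group means as lines. For Klrb1c the sEV-HYP libraries (4.49 and 3.27 CPM) were below all others, and for Cma1, Mcpt4 and Xcl1 the sEV-NORM libraries were above all others.

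Gzma was compared with 6 genes chosen after their values were seen, a choice that the adjustment does not cover. Libraries were permuted without regard to treatment. Ncr1, Klrb1c and Trdc were, like Gzma, called lower with sEV-HYP than with sEV-NORM. Their r over all libraries and its p therefore include this shared difference between groups. Gzma and Ncr1 gave r = 0.854 (exact permutation p = 0.00841, adjusted 0.0242) and rho = 0.952 (exact permutation p = 0.00114, adjusted 0.0131), and r was 0.964 without sEV-NORM replicate 1 and sEV-HYP replicate 1, the libraries farthest from the median of Gzma. Gzma and Trdc gave r = 0.869 (exact permutation p = 0.00623, adjusted 0.0239) and rho = 0.833 (exact permutation p = 0.0154, adjusted 0.0505), and Gzma and Gzmb gave r = 0.703 (exact permutation p = 0.0381, adjusted 0.0731) and rho = 0.405 (exact permutation p = 0.327, adjusted 0.442). Within treatments these r were 0.681 (Ncr1), 0.748 (Trdc) and 0.632 (Gzmb), and without the 2 libraries r was 0.880 for Trdc and 0.286 for Gzmb. The relation with Gzmb thus rests on those libraries. Gzma and Klrb1c gave r = 0.787 (exact permutation p = 0.0146, adjusted 0.0337) and rho = 0.952 (exact permutation p = 0.00114, adjusted 0.0131), with r = 0.725 without the 2 libraries and 0.556 within treatments. Gzma and Klre1 gave r = 0.714 (exact permutation p = 0.0471, adjusted 0.0766) and rho = 0.714 (exact permutation p = 0.0576, adjusted 0.102), with r = 0.869 without the 2 libraries and 0.544 within treatments. Gzma and the mast cell gene Mcpt4 gave r = 0.492 (exact permutation p = 0.220, adjusted 0.297) and rho = 0.690 (exact permutation p = 0.0694, adjusted 0.106), with r = 0.554 without the 2 libraries and an r of the opposite sign, -0.502, within treatments.

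Some markers of other cells were also called with sEV-HYP against sEV-NORM, where 3.95% of all genes were called, and none passed adjustment. With sEV-NORM against sEV-CTRL, 1.62% of all genes were called, and both comparisons share the sEV-NORM libraries. Of 7 mast cell genes, 4 were called lower in sEV-HYP than in sEV-NORM glands and 4 higher in sEV-NORM than in sEV-CTRL glands, and their summed level was 280 to 319 CPM with sEV-CTRL, 406 to 436 CPM with sEV-NORM and 262 to 267 CPM with sEV-HYP. Cma1, a mast cell chymase, changed by -0.65 and 0.58 in these comparisons (unadjusted P = 0.000889 and unadjusted P = 0.000840, edgeR). Mcpt4 had -0.75 with sEV-HYP against sEV-NORM (unadjusted P = 0.00264), and Cpa3 had 0.57 with sEV-NORM against sEV-CTRL (unadjusted P = 0.00176, edgeR). Of 8 neutrophil genes, 7 were tested and 4 were called lower in sEV-HYP than in sEV-NORM glands and 2 higher in sEV-NORM than in sEV-CTRL glands (median 1.06, 7 of 7 positive), with summed levels of 23.9 to 82.2 CPM with sEV-CTRL, 49.95 to 178 CPM with sEV-NORM and 19.4 to 39.2 CPM with sEV-HYP. Of 8 dendritic cell genes, 2 were called lower with sEV-HYP than with sEV-NORM. Of 5 lymph node stroma genes, 1 was called lower in this comparison, Tnfsf11 (-0.94, unadjusted P = 0.00736, edgeR). Beyond the relation of Gzma with Mcpt4, the part of these cells in the levels of the granzyme genes, of which mast cells of the mouse can express Gzmb, was not tested.

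The lists of pan-leukocyte, B cell, macrophage, white adipocyte, luminal epithelium, skeletal muscle and proliferation genes had 0 called genes in all 3 comparisons by edgeR at an unadjusted P under 0.05, and the basal epithelium list had 1, with sEV-HYP against sEV-CTRL. With sEV-HYP against sEV-NORM, their medians were -0.28 (pan-leukocyte), -0.62 (B cell), -0.04 (macrophage), 0.09 (white adipocyte), 0.19 (luminal epithelium), -0.10 (basal epithelium), 2.49 (skeletal muscle) and 0.21 (proliferation). Those of the lists above were -0.43 (lymph node stroma), -0.42 (dendritic cell), -2.18 (neutrophil) and -0.65 (mast cell). Markers of luminal epithelium, basal epithelium and white adipocytes were present in every library, as the mammary gland label implies. Cd3e ran opposite to the luminal list, with r = -0.703 (exact permutation p = 0.04998, adjusted 0.0766) and rho = -0.905 (exact permutation p = 0.00456, adjusted 0.0350), and r = -0.762 without the 2 farthest libraries.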

How the data were processed

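RNA of lysed mammary glands was sequenced in 8 libraries (Lexogen Sense mRNA-Seq kit). The authors used STAR for alignment to mm10 and RSEM 1.2.12 for counts per Ensembl gene (GRCm38). The deposited table gives these as whole-number, unnormalized counts, and how the estimates were rounded is not given in the sources used here. Symbols for 51596 of 51789 genes, positions and exon lengths came from GENCODE M21, and genes without a symbol held 0.0389% of counts. Promoter sequences are RefSeq's, found for 8 of the 10 members (none for Cd4 and Cd8b1). Groups came from the treatment labels.

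Counts were tested with edgeR 4.0.16 (R 4.3.3) in genes that passed filterByExpr at a minimum count of 10, after TMM normalization (factors from 0.975 to 1.02; 5 residual and 4.08 prior degrees of freedom) in one model of the 3 groups. Standard errors and 95% intervals were computed from the log2 fold change and its F statistic. Log2 CPM used a prior count of 2. The procedure was tested on simulated data. The study's own test, DESeq2 on 2 groups (version 1.42.0 here), was an alternative. The others were DESeq2 on all libraries or its size factors, edgeR on 2 groups, other count filters, the replicate number as a block, and each library left out. Leaving out sEV-CTRL replicate 2 and sEV-HYP replicate 2 together was added after seeing the data. No pair of libraries in a group agreed within sampling noise (lowest mean squared difference over sampling variance, 27.6). All members were named, with at most the 2 called genes of lowest P per other list and comparison, and the 8 genes most like CD3. Klrk1, Ncr1, Ctla4, Ikzf2, Madcam1 and Gzmk were named outside this rule after their values were seen. The members and the 18 other lists were chosen with earlier results of these data known.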

Additional observations from a re-analysis of the deposited data

How the results depend on the processing

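With 2 or 3 libraries a group, moderate changes were not detectable: the 95% interval of most members spans more than 1 log2 unit. Under DESeq2's size factors, DESeq2 on all or 2 groups, edgeR on 2 groups and both other count filters, each member kept its direction and its side of the threshold in the 3 comparisons, and the count of members called stayed at 1 for sEV-HYP against sEV-NORM and at 0 for the others. After each group's mean was taken off, correlations of same-numbered libraries ran from -0.416 to 0.369. Those between sEV-CTRL and sEV-HYP were positive (0.369 and 0.337) and the others negative. With 2 sEV-HYP libraries, their values in this check mirror each other, so it cannot decide whether replicate numbers pair the libraries. With the replicate number as a block, 1 member was called with sEV-HYP against sEV-CTRL (Gzma, -0.74, unadjusted P = 0.0220, edgeR), the fold change of Foxp3 in that comparison changed sign to 0.0030, and no other member crossed the threshold. With 1 library left out, or both sEV-CTRL replicate 2 and sEV-HYP replicate 2 (a choice made after seeing the data), 0 to 1 members were called with sEV-HYP against sEV-NORM and 0 to 1 with sEV-NORM against sEV-CTRL, and the fold changes of genes that changed sign ranged as follows. For sEV-HYP against sEV-NORM they were -0.93 to 0.17 (Cd3d), -0.65 to 0.12 (Cd3e), -0.72 to 0.13 (Cd3g), -0.78 to 0.033 (Cd8a), -0.85 to 0.089 (Cd8b1) and -0.0018 to 0.33 (Foxp3). For sEV-HYP against sEV-CTRL they were -0.80 to 0.28 (Cd3d), -0.61 to 0.14 (Cd3e), -0.65 to 0.18 (Cd3g), -0.54 to 0.26 (Cd8a), -0.70 to 0.22 (Cd8b1), -0.47 to 0.049 (Foxp3) and -0.72 to 0.16 (Nkg7). For sEV-NORM against sEV-CTRL they were -0.16 to 0.34 (Cd3d), -0.19 to 0.16 (Cd3e), -0.16 to 0.26 (Cd3g), -0.28 to 0.20 (Cd4), -0.14 to 0.35 (Cd8b1), -0.16 to 0.50 (Gzmb) and -0.038 to 0.45 (Nkg7). Where 1 sEV-HYP library is left, it is assumed to vary like the other groups. With 1 library left out, the median over the members changed sign in each comparison: it ran from -0.75 (without sEV-HYP replicate 1) to 0.06 (without sEV-HYP replicate 2) for sEV-HYP against sEV-NORM and, without the same libraries, from -0.63 to 0.15 for sEV-HYP against sEV-CTRL. For sEV-NORM against sEV-CTRL it ran from -0.15 (without sEV-CTRL replicate 2) to 0.29 (without sEV-NORM replicate 3), and was -0.02 without sEV-NORM replicate 2. Over all genes, leaving out sEV-CTRL replicate 2 raised the count at an unadjusted P under 0.05 from 438 to 1472 with sEV-HYP against sEV-CTRL and from 290 to 1018 with sEV-NORM against sEV-CTRL, leaving out sEV-HYP replicate 2 as well gave 670 and 928, leaving out sEV-CTRL replicate 1 gave 568 in the latter, and no count filter gave 672 and 533. With sEV-HYP against sEV-NORM the count went from 706 to 1195 (DESeq2 on 2 groups), 1102 (no count filter) and 415 (without sEV-HYP replicate 2). DESeq2 on 2 groups called 83, 14 and 3 genes after adjustment in the comparisons as listed, where edgeR called 0, and none was a member. The causes were not tested.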
